A study of Mus musculus with 15 samples.

Results

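Accessible chromatin was examined at 10 interferon-stimulated genes, Mx1, Mx2, Ifit1, Ifit2, Ifit3, Rsad2, Isg15, Usp18, Cxcl10 and Ifi47, out of 21890 genes. The genes were chosen by name as targets of interferon, with Mx1 included because its promoter also drives the Cre transgene of the mutants. Every peak in each gene body and the 50 kb either side (mm10) was taken from 3 ATAC-seq libraries of sorted haematopoietic stem cells (HSC), 1 per genotype. In ATAC-seq a transposase cuts and tags open DNA, and stretches with many cuts are called as peaks.

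The KO library came from adult mice of genotype Mx1-Cre+/-;mTORflox/flox, in which Cre removes the floxed parts of both Mtor alleles. The KI library came from adult Mx1-Cre+/-;mTORflox/knockin mice, in which 1 floxed allele is deleted and a knock-in allele stays. The WT library came from adult Mx1-Cre-/-;mTORflox/flox mice, which carry the floxed alleles but no Cre. Mice of all 3 groups had received poly(I:C), a synthetic double-stranded RNA that induces interferon, and so induces the Mx1 promoter. WT is therefore not an untreated baseline for interferon-stimulated genes. Both mutants carry Cre and WT does not, so that Cre and the Mtor alleles cannot be told apart in comparisons with WT. The Mx1 promoter responds to interferon in many cell types, and deletion was not limited to HSC. The titles of the WT and KO libraries mark them as re-analysed and that of KI does not, and the KI genotype therefore cannot be told apart from that status either. The number of animals behind a library is not given in the sources used here. The series also has 12 RNA-seq samples, not analysed here.

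Interferon signals through its receptor and the kinases JAK1 and TYK2 to transcription factors that enter the nucleus. These bind the interferon-stimulated response element (ISRE) or the gamma-activated site (GAS) in the promoters of target genes. In HSC, interferon and poly(I:C) are known to bring quiescent cells into cycle for a time. Among the genes described here, Mx1 and Mx2 encode dynamin-like GTPases that block viruses. Ifit1, Ifit2 and Ifit3 encode tetratricopeptide proteins, of which IFIT1 binds viral RNA. Rsad2 encodes viperin, an antiviral radical SAM enzyme. Isg15 encodes a ubiquitin-like modifier, and Usp18 the protease that removes it and that also dampens the interferon receptor. Cxcl10 encodes a chemokine for activated T cells, and Ifi47 an immunity-related GTPase. In the reference strain C57BL/6J, RefSeq annotates Mx1 and Mx2 as transcribed pseudogenes.

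The 3 lists held 19189 KO, 28391 KI and 17316 WT peaks, with median widths of 514, 477 and 590 bp in that order, at an unknown read depth. Each peak carries the authors' score, whose scale is not given in the sources used here and whose lowest value is 50. Higher scores were read as stronger calls. The percentile given with a score is its place within its own list and is not comparable between lists of different lengths. Each list was also split at its score quartiles into 4 classes, from class 1 (lowest) to class 4 (highest). There was 1 library per genotype and no replicate error, so each difference is between libraries and carries no test. At the targeted gene Mtor, a peak lay over the annotated start in KI (score 210.27) and in WT (score 341.21), and the KO list had none within 1 kb. Of 10 HSC markers 4 in KO, 6 in KI and 7 in WT had a peak within 1 kb of a gene end (a gene-end peak), Kit, Meis1, Hlf and Mecom in all 3 lists and Ly6a, Slamf1 and Gata2 in none. None of 5 T and NK cell markers had one in any list, while of 4 B cell markers KO had 0, KI 1 and WT 0. Of 6 granulocyte and monocyte markers KO had 0, KI 3 and WT 0, and of 5 erythroid markers KO had 2, KI 4 and WT 1. Of 3 plasmacytoid dendritic cell markers each list had 2, Bst2 and Tcf4, while Siglech had none in any list. Bst2 is also counted below among the antiviral effectors. Beside these marker counts, the share of all genes with a gene-end peak was 44.1% in KO, 51.4% in KI and 44.2% in WT. With so few markers per cell type, their counts cannot be set apart from these shares. The erythroid genes Epor and Car1 had gene-end peaks in both mutants and none in WT, and the part of other cell types in the calls below was not tested. In such bulk libraries, fewer cells with an open site and less opening per cell cannot be told apart.

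The promoter sequences of 7 of the 10 genes follow, from RefSeq (GRCm38.p6, the assembly behind mm10). A promoter peak is one that overlaps such a window, and no peak call used the sequence itself. Each runs 5′ to 3′ along the gene, from 250 bases before to 50 after the annotated start. Mx1, Mx2 and Usp18 have no entry in that table. Capitals mark matches, on either strand, to a core ISRE motif (GAAA, then 2 bases of any kind, then GAAA) or to a core GAS motif (TTCNNNGAA). Ifit3 and Cxcl10 had a promoter peak in KO and KI only, Ifi47 in WT only, Rsad2 and Ifit2 in all 3 lists, and Ifit1 and Isg15 in none.
Ifit3 (chr19:34583279-34583578, plus strand): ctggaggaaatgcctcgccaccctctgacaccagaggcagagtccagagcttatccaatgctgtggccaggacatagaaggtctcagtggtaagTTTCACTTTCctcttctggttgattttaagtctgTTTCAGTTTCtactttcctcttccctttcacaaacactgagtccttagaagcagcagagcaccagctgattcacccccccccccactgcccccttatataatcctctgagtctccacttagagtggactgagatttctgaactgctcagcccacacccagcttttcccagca
Cxcl10 (chr5:92348840-92349139, minus strand): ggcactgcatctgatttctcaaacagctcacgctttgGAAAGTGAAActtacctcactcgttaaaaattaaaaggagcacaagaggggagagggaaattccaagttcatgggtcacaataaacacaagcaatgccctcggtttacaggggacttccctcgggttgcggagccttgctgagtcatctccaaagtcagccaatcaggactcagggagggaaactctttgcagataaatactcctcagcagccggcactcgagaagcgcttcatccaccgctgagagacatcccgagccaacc
Ifi47 (chr11:49076337-49076636, plus strand): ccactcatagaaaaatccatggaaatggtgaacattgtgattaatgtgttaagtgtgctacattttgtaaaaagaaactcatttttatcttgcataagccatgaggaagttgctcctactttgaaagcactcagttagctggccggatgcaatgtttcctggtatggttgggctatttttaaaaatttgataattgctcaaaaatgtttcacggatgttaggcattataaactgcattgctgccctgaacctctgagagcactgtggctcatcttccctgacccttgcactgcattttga
Rsad2 (chr12:26456403-26456702, minus strand): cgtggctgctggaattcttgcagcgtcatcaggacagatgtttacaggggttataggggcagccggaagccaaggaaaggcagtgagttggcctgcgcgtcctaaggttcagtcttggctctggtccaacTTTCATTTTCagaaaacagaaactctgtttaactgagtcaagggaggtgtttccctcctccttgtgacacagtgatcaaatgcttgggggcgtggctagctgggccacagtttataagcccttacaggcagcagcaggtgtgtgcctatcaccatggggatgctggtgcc
Ifit2 (chr19:34550444-34550743, plus strand): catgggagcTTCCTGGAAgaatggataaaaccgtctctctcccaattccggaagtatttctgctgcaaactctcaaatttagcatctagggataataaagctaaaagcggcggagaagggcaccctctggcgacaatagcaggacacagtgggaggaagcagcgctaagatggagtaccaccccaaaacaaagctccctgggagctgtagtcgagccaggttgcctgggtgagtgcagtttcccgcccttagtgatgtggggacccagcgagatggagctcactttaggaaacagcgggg
Ifit1 (chr19:34640639-34640938, plus strand): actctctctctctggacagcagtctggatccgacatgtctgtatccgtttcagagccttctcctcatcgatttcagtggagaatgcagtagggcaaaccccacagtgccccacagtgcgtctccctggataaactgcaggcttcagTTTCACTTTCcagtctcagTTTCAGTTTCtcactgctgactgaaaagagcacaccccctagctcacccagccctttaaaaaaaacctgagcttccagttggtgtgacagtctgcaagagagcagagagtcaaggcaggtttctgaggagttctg
Isg15 (chr4:156200769-156201068, minus strand): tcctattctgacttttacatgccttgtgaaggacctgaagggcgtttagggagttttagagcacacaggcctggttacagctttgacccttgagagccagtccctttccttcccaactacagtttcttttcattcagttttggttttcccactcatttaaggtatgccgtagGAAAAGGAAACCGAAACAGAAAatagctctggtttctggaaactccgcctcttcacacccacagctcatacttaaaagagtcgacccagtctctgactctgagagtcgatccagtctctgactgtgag

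The ISRE core was found in 1131 of 32851 RefSeq promoters (3.44%) and the GAS core in 2726 (8.3%). The ISRE core was present in 5 of the 7 printed promoters. Ifit3 held it at bases -156 to -147 and -122 to -113, counted from the annotated start as base 0, and Ifit1 at -104 to -95 and -85 to -76. Rsad2 held 1 match at -120 to -111 and Cxcl10 1 at -213 to -204. Isg15 held 3 overlapping matches between -78 and -57. The Ifit2 promoter held a GAS core alone, at -241 to -233, and the window of Ifi47 held neither. ISRE cores thus stood in promoters with a peak in all lists (Rsad2), in the mutants only (Ifit3, Cxcl10) and in no list (Ifit1, Isg15).

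At the gene ends, 3 genes had a peak in KO and in KI but not in WT (Mx1, Ifit3 and Cxcl10), and 2 had a peak in WT but in neither mutant (Mx2 and Ifi47). Ifit2, Rsad2 and Usp18 had a gene-end peak in all 3 lists, and Ifit1 and Isg15 in none. KO and KI gave the same call at each of the 10 genes. Of the 5 genes without a WT gene-end peak, 3 (60.0%) had one in KO and the same 3 in KI. Over all genes without one in WT, the share was 8.22% in KO, 15.5% in KI and 6.33% in both mutants. Of the 5 genes with a WT gene-end peak, 2 (40.0%) had none in KO and the same 2 none in KI. Over all genes with one in WT that share was 10.5% for KO, 3.3% for KI and 2.44% for both. Between the mutants, of the 6 genes with a KI gene-end peak 0 had none in KO, beside 16.9% of all such genes. Of the members without one in KI, 0 had one in KO, beside 2.95% of all such genes. Over all 21890 genes, 1906 had one in KI and not in KO and 314 the opposite. So few members cannot set their 0 apart from these shares. Among peaks with a score of at least 100, the KI calls at Mx1 and Cxcl10 held, both calls of Ifit3, Mx2 and Ifi47 and the KO calls of Mx1 and Cxcl10 ended, Ifit2 counted as gained in both mutants and Usp18 as lost in KO. With the lists cut to an equal size, the KI call of Ifit3 ended. The shares of 60.0 and 40.0% rest on 5 genes each, chosen with earlier results of these data known, and both mutants are set against the same WT list.

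**Figure D1:**
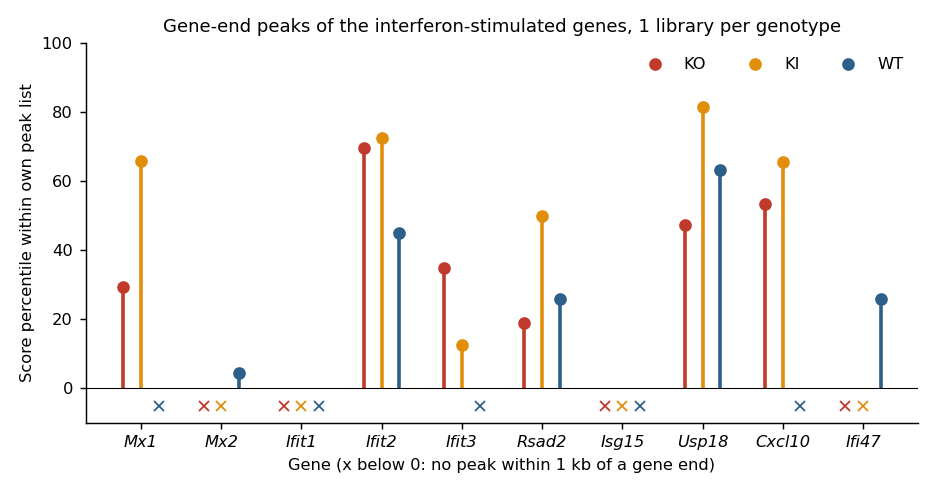
Score percentile within its own list (vertical axis, %) of the highest-scoring peak within 1 kb of either end of each gene, for the KO, KI and WT libraries, with a cross where the list had no such peak. Mx1, Ifit3 and Cxcl10 have points for KO and KI only, Mx2 and Ifi47 for WT only, and percentiles of different lists are not on a common scale.

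Mx1 spans chr16:97447035-97462906. Its right-hand end lay under a peak of 617 bp in KO (chr16:97462676-97463292, score 66.79, percentile 29.3) and of 725 bp in KI (chr16:97462766-97463490, score 130.28, percentile 65.7). WT had no peak there, and its nearest lay 15153 bp away. Of KO peaks in the same score class (class 2) 47.1% had no overlapping WT peak, and of KI peaks in the same class (class 3) 32.1% had none. The Mx1-Cre transgene carries a copy of the Mx1 promoter, so that in KO and KI reads from the transgene and from the endogenous promoter cannot be told apart in these peak lists. The remaining peaks of the Mx1 window lay away from it. KI had 1 of 310 bp 2759 bp to the left (score 74.91, percentile 36.1), outside any gene body of the table, and no other list had it. A peak inside Fam3b, to the right, had 505 bp in KI (score 105.0, percentile 56.0) and 420 bp in WT (score 69.22, percentile 28.4), and KO had none.

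Mx2, the neighbouring gene at chr16:97536081-97560901, showed the opposite call on thin evidence. Neither KO nor KI had a peak in its body or within 50 kb. WT had 1 of 417 bp (chr16:97534900-97535316), 765 bp to the left of the gene, with a score of 52.67, at percentile 4.51 of its list. Of WT peaks in score class 1, 57.4% had no overlapping KO peak and 34.6% no overlapping KI peak. The Mx2 call thus rested on a WT peak just above the lowest score of the list, and was gone where a gene end was taken within 500 bp.

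Ifi47, at chr11:49076587-49096987, was the other gene with a peak in WT alone. The KO and KI lists had no peak anywhere in its body and the 50 kb either side, and their nearest peaks lay 93733 bp (KO) and 93542 bp (KI) from the WT promoter peak. That WT peak (chr11:49076433-49076853, 421 bp, score 67.11, percentile 25.9) covered 204 of the 300 promoter bases printed above. WT had a second peak 26133 bp to the left, of 472 bp, in 9930111J21Rik2 (score 51.45, percentile 2.45). In WT score class 2, which holds the promoter peak, 34.4% of peaks had no overlapping KO peak and 15.2% no overlapping KI peak. A window without any peak was not rare over all genes, at 23.6% in KO, 18.5% in KI and 24.4% in WT. Ifi47 and Mx2 were the members with none in KO and KI, and Ifit1 the member with none in WT.

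The 3 Ifit genes lie side by side on chromosome 19, so their windows share peaks. In this cluster the lists parted to the right of Ifit2. The Ifit2 promoter (gene at chr19:34550550-34576534) had a peak in every list: 820 bp in KO (score 121.66, percentile 69.4), 938 bp in KI (score 155.2, percentile 72.3) and 502 bp in WT (score 86.83, percentile 44.9). The KO and KI peaks were the wider ones here, although the lists as a whole had narrower peaks than WT. RefSeq lists a further Ifit2 start to the right of the first, with its promoter window at chr19:34550838-34551137. The KO and KI peaks each covered all 300 bases of that promoter window and the WT peak covered 17.

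The Ifit3 promoter (gene at chr19:34583119-34588982) had a peak of 395 bp in KO (chr19:34583228-34583622, score 71.19, percentile 34.7) and of 370 bp in KI (chr19:34583234-34583603, score 57.02, percentile 12.5), both covering the whole printed promoter with its ISRE cores. WT had none there, and its nearest peak was the one at Ifit2, 32374 bp away. Of KO peaks in the same score class (class 2) 47.1% had no overlapping WT peak, and of KI peaks in class 1 83.1% had none. Farther right, the start of Ifit3b had a peak of 348 bp in KO (score 65.15, percentile 26.9) and of 450 bp in KI (score 56.79, percentile 12.1), with none in WT. The promoters of Ifit3 and Ifit3b were identical at 259 of 274 aligned positions (94.5%), so short reads could be shared between these copies, and how such reads were handled is not given in the sources used here.

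Ifit1 (chr19:34640889-34650009) had no gene-end peak in any list, and WT had no peak at all in its window. KO and KI shared a peak past its right-hand end (6478 bp away in KO and 6360 bp in KI), inside the long gene model Ifit1bl1. It had 467 bp in KO (chr19:34656487-34656953, score 77.47, percentile 41.4) and 513 bp in KI (chr19:34656369-34656881, score 176.34, percentile 76.8). The KO peak stood in score class 2, where 47.1% of peaks had no overlapping WT peak, and the KI peak in class 4, where 2.0% had none. The KI score lay near the lower bound of that class (167.54), and in class 3 the share was 32.1%. Its nearest WT peak lay 105515 bp away. KO alone had a weak peak of 212 bp 3641 bp to the left of Ifit1 (score 52.64, percentile 5.1). On the other side of the cluster the lists matched more closely. The end of Lipa had a peak in KO (492 bp, score 176.99, percentile 84.3), KI (459 bp, score 221.68, percentile 83.5) and WT (502 bp, score 155.39, percentile 75.1). A peak inside Lipa was present in KO (342 bp, score 61.23, percentile 20.6) and WT (353 bp, score 85.49, percentile 43.9) and missing in KI.

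**Figure D2:**
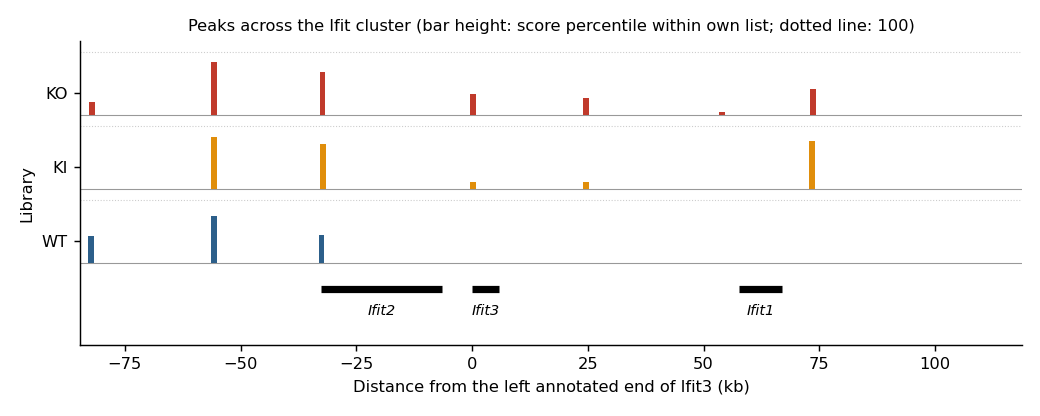
Peaks of the KO, KI and WT libraries (rows) across the Ifit cluster, by distance from the left end of Ifit3 in kb, with bar height giving the score percentile within each list and black bars the genes. Bars of narrow peaks are drawn wider than scale. Right of Ifit2 the KO row has 4 peaks, the KI row 3 and the WT row none.

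Cxcl10 (chr5:92346638-92348889) had the highest-scoring KO peak among the 3 genes with mutant peaks alone. Its promoter lay under a peak of 404 bp in KO (chr5:92348740-92349143, score 91.96, percentile 53.4) and of 476 bp in KI (chr5:92348678-92349153, score 129.4, percentile 65.4). Each covered all 300 printed bases, with the ISRE core. WT had none, and its nearest peak lay 19834 bp away. In score class 3, which holds both peaks, 16.7% of KO and 32.1% of KI peaks had no overlapping WT peak. Cxcl9, the neighbouring chemokine gene, repeated the pattern, with 343 bp in KO (score 65.57, percentile 27.5), 176 bp in KI (score 64.72, percentile 24.8) and no WT peak. The KI call of Cxcl9 ended with the lists cut to an equal size, and both calls ended at a score of at least 100.

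Away from Cxcl10 and Cxcl9, the window held 1 peak in KO, 7 in KI and 3 in WT. The end of Sdad1 had a peak in KO (646 bp, score 68.36, percentile 31.2), KI (779 bp, score 176.81, percentile 76.8) and WT (726 bp, score 138.89, percentile 69.9). Inside Art3, 2 peaks were common to KI and WT and absent from KO. They had 1082 and 404 bp in KI (scores 155.12 and 53.0, percentiles 72.2 and 5.27) and 531 and 396 bp in WT (scores 83.02 and 56.38, percentiles 41.8 and 10.7). A further 4 peaks of KI alone, of 287 to 478 bp, scored between 55.65 and 87.45, at percentiles from 9.9 to 46.2. Among them, that of 473 bp (score 64.62) lay only 165 bp from the WT peak with score 56.38.

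**Figure D3:**
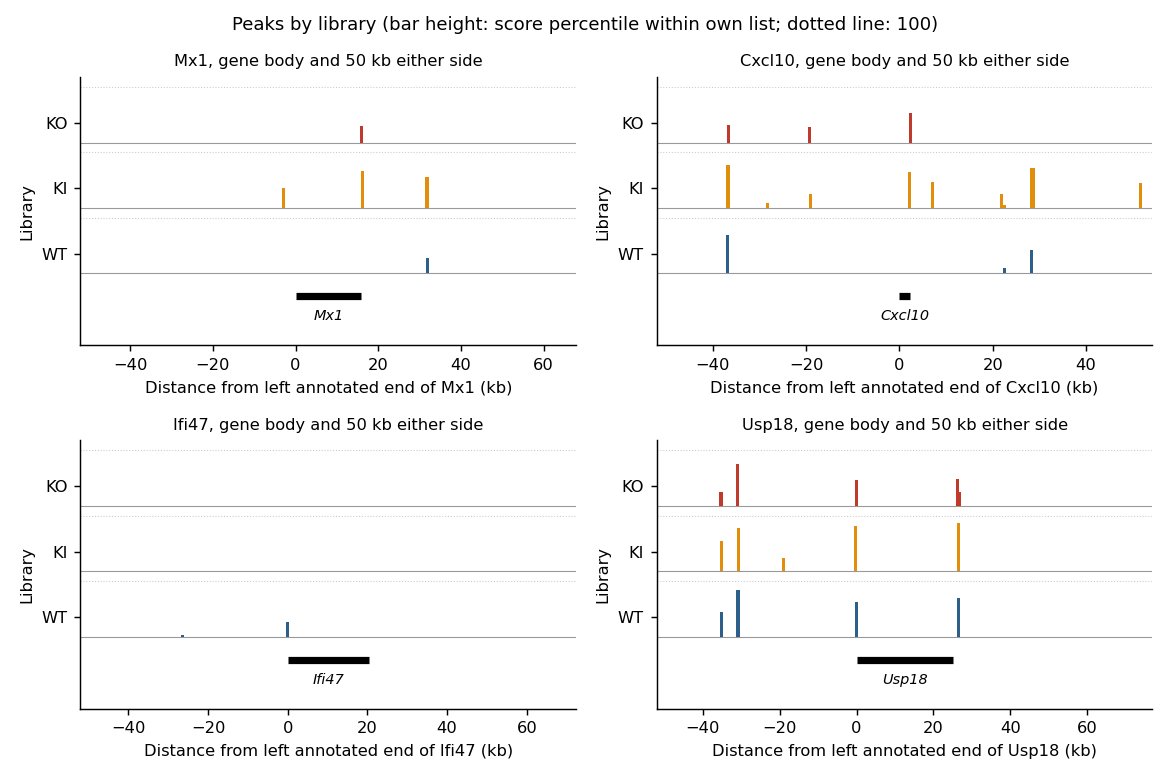
Peaks of the KO, KI and WT libraries (rows) in the gene body and 50 kb either side of Mx1, Cxcl10, Ifi47 and Usp18, by distance from the left end of the gene in kb, with bar height giving the score percentile within each list. Narrow peaks are drawn wider than scale. At the gene ends Mx1 and Cxcl10 have bars in the KO and KI rows, Ifi47 in the WT row and Usp18 in all 3 rows.

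Rsad2 (chr12:26442743-26456452) and its neighbour Cmpk2, which encodes a mitochondrial nucleotide kinase, had promoter peaks in every list. At Rsad2 the peak had 551 bp in KO (score 60.26, percentile 19.0), 711 bp in KI (score 92.83, percentile 49.7) and 541 bp in WT (score 67.01, percentile 25.8). At Cmpk2 it had 1118 bp in KO (score 148.22, percentile 77.8), 1179 bp in KI (score 217.1, percentile 83.0) and 1053 bp in WT (score 110.67, percentile 58.5). The end of Rnf144a also had a peak in all lists, of 802 bp in KO (score 125.46, percentile 70.7), 458 bp in KI (score 139.13, percentile 68.3) and 585 bp in WT (score 60.63, percentile 17.3). Between Rsad2 and Cmpk2, a weak peak was present in KI (384 bp, score 52.06, percentile 3.72) and WT (440 bp, score 50.38, percentile 0.606) and not in KO. Inside Rnf144a, 2 further peaks of 369 and 392 bp were found in KI alone, with scores of 83.17 and 55.88 at percentiles 43.2 and 10.4.

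Isg15 and Usp18, the modifier and its protease, did not share a pattern. Isg15 (chr4:156199424-156200818) had no peak over its body or within 1 kb of it in any list, although its promoter held 3 ISRE cores. Its nearest common peak, at the end of Agrn, had 966 bp in KO (score 121.23, percentile 69.2), 1020 bp in KI (score 272.09, percentile 89.1) and 986 bp in WT (score 224.91, percentile 88.1). On the other side, at the end of Perm1, a peak was present in KO (514 bp, score 67.98, percentile 30.7) and KI (854 bp, score 187.77, percentile 78.8) and absent from WT, and in KI it came within 1687 bp of Isg15. Of KO peaks in the same score class (class 2) 47.1% had no overlapping WT peak, and of KI peaks in class 4 2.0% had none, with the KI score again in the lower part of its class. The third region, near the end of Klhl17, was present in KO (884 bp, score 138.68, percentile 74.9), KI (865 bp, score 185.68, percentile 78.4) and WT (898 bp, score 125.8, percentile 65.0).

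The window of Usp18 (chr6:121245906-121270917) had all but 1 of its regions in every list, with scores that varied. Its left-hand end lay under a peak of 649 bp in KO (score 83.75, percentile 47.3), 665 bp in KI (score 206.62, percentile 81.5) and 533 bp in WT (score 121.42, percentile 63.3). The region past its right-hand end, at Gm44148, held 2 peaks of 210 and 574 bp in KO (scores 84.94 and 64.12, percentiles 48.2 and 25.3). There KI had 1 of 910 bp (score 251.32, percentile 87.0) and WT 1 of 809 bp (score 137.51, percentile 69.4). At the end of Tuba8 the peak had 534 bp in KO (score 63.85, percentile 24.9), 628 bp in KI (score 101.38, percentile 54.4) and 793 bp in WT (score 86.11, percentile 44.4). A peak inside Tuba8 had 739 bp in KO (score 141.32, percentile 75.8), 690 bp in KI (score 185.74, percentile 78.4) and 939 bp in WT (score 203.29, percentile 84.7). Only 1 region of this window differed, a KI peak of 339 bp near the other end of Tuba8 (score 63.96, percentile 23.6).

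With each peak counted once, the windows of the 10 genes held 22 KO, 31 KI and 20 WT peaks. The median number per window was 3 in KO, 3 in KI and 2 in WT, beside 2, 3 and 2 over all genes in the same order. The share of window peaks without a counterpart lay above that of the whole list in each comparison with WT. In those between the mutants it lay below. Of the KO peaks 8 of 22 had no overlapping WT peak (36.4%, Wilson 95% interval 19.7 to 57.0), beside 32.4% of all KO peaks, and of the WT peaks 7 of 20 had no overlapping KO peak (35.0%, 18.1 to 56.7), beside 25.5%. Of the KI peaks 15 of 31 had no overlapping WT peak (48.4%, 32.0 to 65.2), beside 46.5%, and of the WT peaks 4 of 20 had no overlapping KI peak (20.0%, 8.07 to 41.6), beside 13.1%. Between the mutants, 2 of 22 KO peaks had no overlapping KI peak (9.09%, 2.53 to 27.8), beside 16.0%, and 12 of 31 KI peaks had no overlapping KO peak (38.7%, 23.7 to 56.2), beside 43.2%. The intervals cover counting error over peaks only, and each contained the share of the whole list. With so few peaks they are wide, so they cannot show that the shares are alike.

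**Figure D4:**
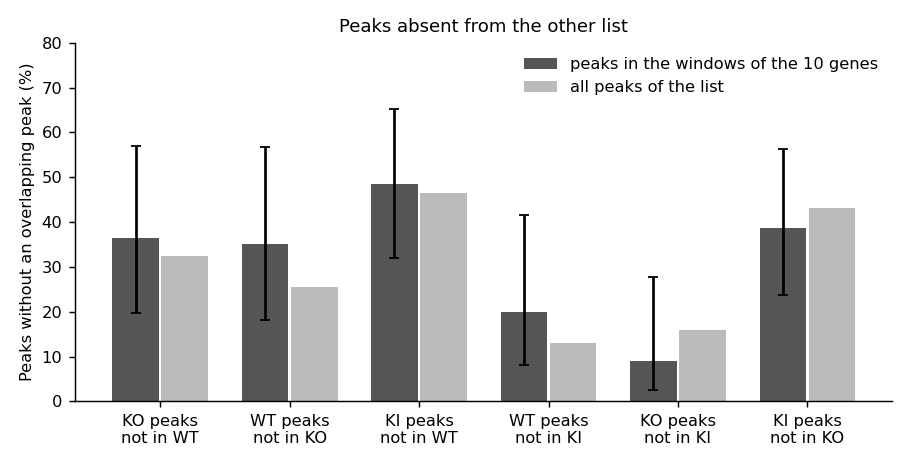
Share of peaks (vertical axis, %) of one list without an overlapping peak in another, for peaks in the windows of the 10 genes (dark, with Wilson 95% intervals for counting error) and for all peaks of the list (light). In each of the 6 comparisons the interval of the dark bar contains the light bar.

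Merged over the lists, the windows held 36 regions. A peak was present in all 3 lists in 12 of them (33.3%, beside 37.5% of all 32768 regions). Regions of both mutants and not of WT numbered 7 (19.4%, beside 10.7%): the ends of Mx1, Ifit3, Ifit3b, Cxcl10, Cxcl9 and Perm1 and the site right of Ifit1. The other classes were KI alone with 8 (22.2%, beside 29.3%), KI and WT with 4 (11.1%, beside 7.71%), WT alone with 3 (8.33%, beside 5.52%), KO and WT with 1 (2.78%, beside 1.31%) and KO alone with 1 (2.78%, beside 8.0%). Of the 7 regions of both mutants, 3 lie within the Ifit cluster and 2 beside each other at Cxcl9 and Cxcl10.

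The 62 other genes of the interferon pathway were called in the same way. KO and KI differed at some of them. Of the 44 with a gene-end peak in KI, 10 had none in KO, beside 16.9% of all genes with one in KI. Of those without one in KI, 1 had one in KO, beside 2.95% of all such genes. KO gained a gene-end peak at 2 of the 25 without one in WT (8.0%, beside 8.22% of all genes) and lost it at 4 of 37 (10.8%, beside 10.5%). KI gained 8 of 25 (32.0%, beside 15.5%) and lost 1 of 37 (2.7%, beside 3.3%). With the lists cut to an equal size, KI gained 2 of these genes and lost 5. The pattern of Mx1, present in both mutants and not in WT, occurred at 2 of the 62, namely Cxcl9, described above, and Ifitm1, which encodes a membrane protein that blocks virus entry (score 101.13 in KO and 59.92 in KI). That is 2 of the 25 without a WT gene-end peak (8.0%, beside 6.33% of all such genes). The KI call of both ended with the lists cut to an equal size and at a score of at least 100, so that neither then had the pattern. None of the 37 with a WT gene-end peak had the pattern of Ifi47, beside 2.44% of all such genes. So few genes cannot set this result apart from that share.

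The share of all 21890 genes with such a peak was 44.1% in KO, 51.4% in KI and 44.2% in WT. By role, receptor and signalling genes had gene-end peaks at 9 of 10 in KO, 10 in KI and 10 in WT. The difference was at Ifngr2, a chain of the interferon-gamma receptor, with peaks in KI (score 113.14) and WT (score 51.09) alone. Of the 7 interferon regulatory factors KO had 4, KI 5 and WT 4, with Irf8, a factor of monocyte and dendritic cell fate, in KI alone (score 75.33). Of 8 genes grouped as feedback inhibitors, Usp18 among them, 7 had a gene-end peak in each list. The group also holds Uba7 and Ube2l6, enzymes that attach the Isg15 product and are not inhibitors. Of 24 other antiviral effectors KO had 10, KI 16 and WT 12. Oasl1, of the oligoadenylate synthetase-like family, had one in KI (score 119.8) and WT (score 54.71) and none in KO. Ifi35 had one in KI alone (score 102.6). Of 9 guanylate-binding and immunity-related GTPases KO had 4, KI 5 and WT 4. Gbp2 had one in KO (score 72.42) and WT (score 110.14), and Igtp, an immunity-related GTPase like Ifi47, and Gbp4 in KI alone (scores 66.28 and 64.22). The KI calls of Irf8, Igtp and Gbp4 ended with the lists cut to an equal size and at a score of at least 100, while that of Ifi35 held under both. The KO calls of Ifngr2 and Oasl1 ended at a score of at least 100, where both counted as gained in KI. The KO call of Ifngr2 and the KI call of Gbp2 ended with gene ends within 2500 bp, and the KO call of Oasl1 within 500 bp. Of 5 chemokine genes KO had 2, KI 2 and WT 1.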

How the data were processed

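The 3 ATAC-seq libraries each entered with 50000 sorted cells and a transposition of 30 min at 37 °C, per the labels' protocols. The authors deposited 1 peak list per library, with a score for each peak and names of the kind MACS writes. Per the submitters' processing notes, coordinates are on mm10 and CASAVA was among the tools. The aligner, caller version, duplicate handling, any read shift, any control, the scale of the score and the read depth are not stated in those sources. A deeper library yields more weak peaks at a fixed threshold.

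Peak starts were made 1-based. Percentiles are ranks within a list. Gene positions were those of RefSeq on GRCm38.p6 (protein-coding genes plus listed genes), which gives no strand, so that a peak within 1 kb of either end counted. A gene called gained had such a peak in the mutant and none in WT, and lost the opposite. Peaks sharing at least 1 bp were shared. All 95 pathway and marker genes, Usp18 among them, were matched. The members, lists and comparisons were chosen with earlier results of these data known. Named were all 10 members and the genes at whose ends their peaks lay. Named too were, per pathway list, up to 4 genes whose calls differed, highest score first, and genes with the pattern of Mx1; 1 gene so named is not reported here. The functions were checked on simulated peaks. Python 3.11.15, pandas 2.3.3 and scipy 1.17.1 were used. Alternatives were a score of at least 100, equal list sizes, other window and gene-end distances and other overlap rules.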

Additional observations from a re-analysis of the deposited data

How the results depend on the processing

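Requiring a score of at least 100 removed most weak peaks and moved most counts. Window peaks then numbered 7 in KO, 17 in KI and 8 in WT, and members with a gene-end peak 1 in KO and 1 in WT. Members gained in KO became 1 (Ifit2), lost in KO 1 (Usp18) and lost in KI 0. Window peaks without a counterpart became 2 (KO, not in WT), 3 (WT, not in KO), 9 (KI, not in WT), 0 (WT, not in KI) and 0 (KO, not in KI), and pathway genes lost in KI 2. At equal list size, Ifit3 was no longer gained in KI. There 7 of 21 KI window peaks had no WT peak, 5 had no KO peak and 4 of 21 KO peaks had no KI peak. KI then gained 2 and lost 5 pathway genes. For the score cut and the equal size, shares over the whole lists were not computed. These counts of peaks without a counterpart thus have no background beside them. Shares over all genes were computed under no alternative. With windows of 10 kb there were 12 KO, 13 KI and 8 WT peaks. Without a counterpart were 3 (WT, not in KO), 7 (KI, not in WT), 2 (WT, not in KI), 1 (KO, not in KI) and 3 (KI, not in KO). The whole lists were unchanged there, so the shares given earlier for all peaks still apply. With gene ends within 500 bp, members lost were 1 in KO and 1 in KI, and KO gained 4 pathway genes. With gene ends within 2500 bp KI lost 0 pathway genes, and no member's gained or lost call changed, while Isg15 had a gene-end peak in all 3 lists (7 members in KO, 7 in KI and 6 in WT). The Mx1 and Cxcl10 calls changed under the score of at least 100 alone, and there in KO and not in KI, and the Ifi47 calls there in both mutants. Keeping fewer peaks or using smaller windows changes counts by itself, and no cause of the changes was tested. No paired analysis was possible because each genotype has 1 ATAC-seq library. The pathway alternatives were chosen after seeing the data. Read depth is unknown, and a missing peak may be one just under the calling threshold.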

Other observations

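The ISRE and GAS cores were also set against the peak lists over all RefSeq promoters. Of 873 ISRE promoters without a WT peak, KO had a peak at 45 (5.15%, beside 4.8% of all 22785 promoters without one) and KI at 68 (7.79%, beside 8.88%). Of 258 with a WT peak, KO had none at 32 (12.4%, beside 11.9% of all 10066) and KI none at 15 (5.81%, beside 3.84%). For the GAS core, KO had a peak at 69 of 2107 (3.27%, beside 4.8%) and KI at 151 (7.17%, beside 8.88%) of those without one in WT. Of 619 GAS promoters with a WT peak, KO had none at 76 (12.3%, beside 11.9%) and KI none at 27 (4.36%, beside 3.84%). These are values of 1 library per genotype with no test.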
